A study of Mus musculus with 6 samples.

Results

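The nuclear genes for the subunits of respiratory complexes II, III and IV, for ATP synthase (complex V) and for cytochrome c were followed in RNA sequencing of mouse hearts. Members were chosen by name: Sdha, Sdhb, Sdhc, Sdhd, Cyc1, Cycs and each protein-coding gene whose symbol begins with Uqcr, Cox4i, Cox5, Cox6, Cox7, Cox8 or Atp5, leaving out pseudogenes and assembly factors. This gave 49 of the 20254 genes measured, of which 4 belong to complex II, 9 to complex III, 17 to complex IV and 18 to complex V, with cytochrome c as the last. A gene was tested if its normalized value was 10 or more in at least 3 libraries, and 48 of the 49 members passed. Cox7b2, the testis isoform of a complex IV subunit, reached at most 2.79 and was not tested. In the annotation 51 protein-coding genes meet the naming rule, and the remaining 2, Cox8c and a second gene model called Atp5o, were not analysed here. RefSeq calls 3 members by other names: Atp5f1 is Atp5pb, Atp5s is Dmac2l and Usmg5 is Atp5md. Members were kept by symbol alone, and it was not examined whether each, such as Atp5s or Cox7a2l, is a structural subunit.

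The hearts came from 3 Trdn-as knockout (KO) mice and 3 wild-type (WT) mice, all C57BL/6, with 1 library per mouse. Replicates 1 and 2 of each genotype were 14 months old and replicate 3 of each genotype was 5 months old. The labels name no sequencing batch, no sex and no construction of the deletion, so age cannot be told apart from anything else that sets replicate 3 apart. Nothing states that the mice came from separate litters, and p-values measure the spread between these 6 hearts.

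Library totals of normalized values were 19.8 to 23.5 in units of 1e6, and mitochondrially encoded genes took 40.0 to 49.4% of them. Trdn, the gene opposite to which the deleted transcript lies, had 3429 and 3459.7 in the 14-month KO hearts, against 5702 and 5599.8 in the 14-month WT hearts, and 5606 in the 5-month KO heart against 9104 in the 5-month WT heart. The deleted antisense RNA itself was not analysed here. Y-linked genes summed to 82.2 in KO-2 and 54.9 in WT-2, against 2496 to 4482 in the other 4 libraries. Defining heart muscle genes were abundant in every library, and Odf1, the 1 of 4 testis genes that was measured, was at 2.82 in KO-1 and at 0 in the others. The lung marker Scgb1a1 was at 518 in KO-1 and at most 2.91 in the others, and the erythroid markers summed to 66820 in WT-1, against 2727 to 19386 in the others. The 5-month WT library stood apart: its 9 cardiomyocyte markers summed to 1231859, against 623063 to 705274 in the other 5 libraries. Some age differences changed markedly without this library, and where the sign of a described member changed, its value without it is given. With genotype as a covariate, leaving out 1 of the 5-month hearts leaves the age difference of the other genotype. Such a fit has 1 heart at 5 months, and all its spread comes from the 14-month hearts. Passing the test in it is therefore not counted as a call.

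The respiratory chain passes electrons from succinate (complex II) and from complex I through ubiquinone to complex III, then through cytochrome c to complex IV, where oxygen is reduced. Complexes III and IV pump protons across the inner mitochondrial membrane, and complex V uses the return of those protons to make ATP. The heart meets most of its demand for ATP in this way, and the subunits are coded partly in the nucleus and partly in mitochondrial DNA. Complex II is wholly nuclear coded. Several complex IV subunits have one isoform typical of heart and skeletal muscle and another typical of liver and most other tissues.

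The promoters of 38 members were found in the RefSeq table for GRCm38.p6, each a window of 300 bases with 250 before the start of the gene and 50 after it. They are shown for the c-ring genes Atp5g2 and Atp5g3, whose deposited values moved in opposite directions with age, and for Cycs, the electron carrier between complexes III and IV. The windows are chr15:102670998-102671297 for Atp5g2, chr2:73911277-73911576 for Atp5g3 and chr6:50566520-50566819 for Cycs. All 3 are read 5′ to 3′ on the minus strand, which is the strand of the gene. Capitals mark matches, on either strand, to the words GCGCATGC (nuclear respiratory factor 1, NRF1), CCGGAAGT (GA-binding protein, GABP), TCAAGGTCA (oestrogen-related receptors, ERR), AAGATGGC (YY1) or CCAAT (nuclear factor Y).
Atp5g2: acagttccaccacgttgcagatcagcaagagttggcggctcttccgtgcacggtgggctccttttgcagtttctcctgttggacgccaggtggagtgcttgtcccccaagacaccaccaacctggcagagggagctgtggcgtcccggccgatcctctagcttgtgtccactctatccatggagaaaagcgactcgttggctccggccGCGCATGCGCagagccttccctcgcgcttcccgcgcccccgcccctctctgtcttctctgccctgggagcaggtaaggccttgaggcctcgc
Atp5g3: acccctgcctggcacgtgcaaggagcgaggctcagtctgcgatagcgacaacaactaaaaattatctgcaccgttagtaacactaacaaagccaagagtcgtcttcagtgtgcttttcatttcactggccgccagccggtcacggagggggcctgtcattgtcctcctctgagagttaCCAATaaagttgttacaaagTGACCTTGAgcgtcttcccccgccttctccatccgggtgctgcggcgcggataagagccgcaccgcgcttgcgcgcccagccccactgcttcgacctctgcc
Cycs: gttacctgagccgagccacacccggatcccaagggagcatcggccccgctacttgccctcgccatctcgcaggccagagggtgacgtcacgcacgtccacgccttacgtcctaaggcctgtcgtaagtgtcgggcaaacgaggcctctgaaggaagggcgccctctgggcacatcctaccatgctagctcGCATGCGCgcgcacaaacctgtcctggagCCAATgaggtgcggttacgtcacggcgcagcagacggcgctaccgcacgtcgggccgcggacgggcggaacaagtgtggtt
Counted from the start of the gene, the NRF1 word begins at −42 in the Atp5g2 window and, on the opposite strand, at −40, so these 2 matches overlap and share 1 run of capitals. The Atp5g3 window holds CCAAT at −72 and, on the opposite strand, the ERR word at −52. The Cycs window holds the NRF1 word on the opposite strand at −60 and CCAAT at −31. The NRF1 word stood in 8 of 38 member promoters (21.1%), against 3.05% of 27025 genes with a promoter. Those 8 members are Atp5g2, Atp5k, Atp5l, Cox6a1, Cycs, Sdhb, Uqcr11 and Uqcrc1. The GABP word stood in 4 of 38 (10.5%, against 4.31%), the ERR word in 2 (5.26%, against 0.466%), the YY1 word in 3 (7.89%, against 3.19%) and CCAAT in 22 (57.9%, against 41.1%). A match describes the letters of the window and is not a measured binding site.

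The most abundant members at 14 months, with the normalized value divided by the transcript length in kilobases, were Atp5b (23216 per kilobase), the catalytic beta subunit of ATP synthase, Cox6a2 (23173), the heart and muscle isoform of complex IV subunit 6a, and Atp5a1 (18030), the alpha subunit of ATP synthase. The other members tested lay within 1379 to 13895 per kilobase, except Atp5s with 173, Cox4i2 with 89.9 and Cox6b2, a testis isoform, with 28.1 per kilobase. Among the 4 hearts of 14 months the members varied little: the coefficient of variation had a median of 4.16% over members and ran from 1.41% for Sdhb to 25.0% for Atp5g2.

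**Figure D1:**
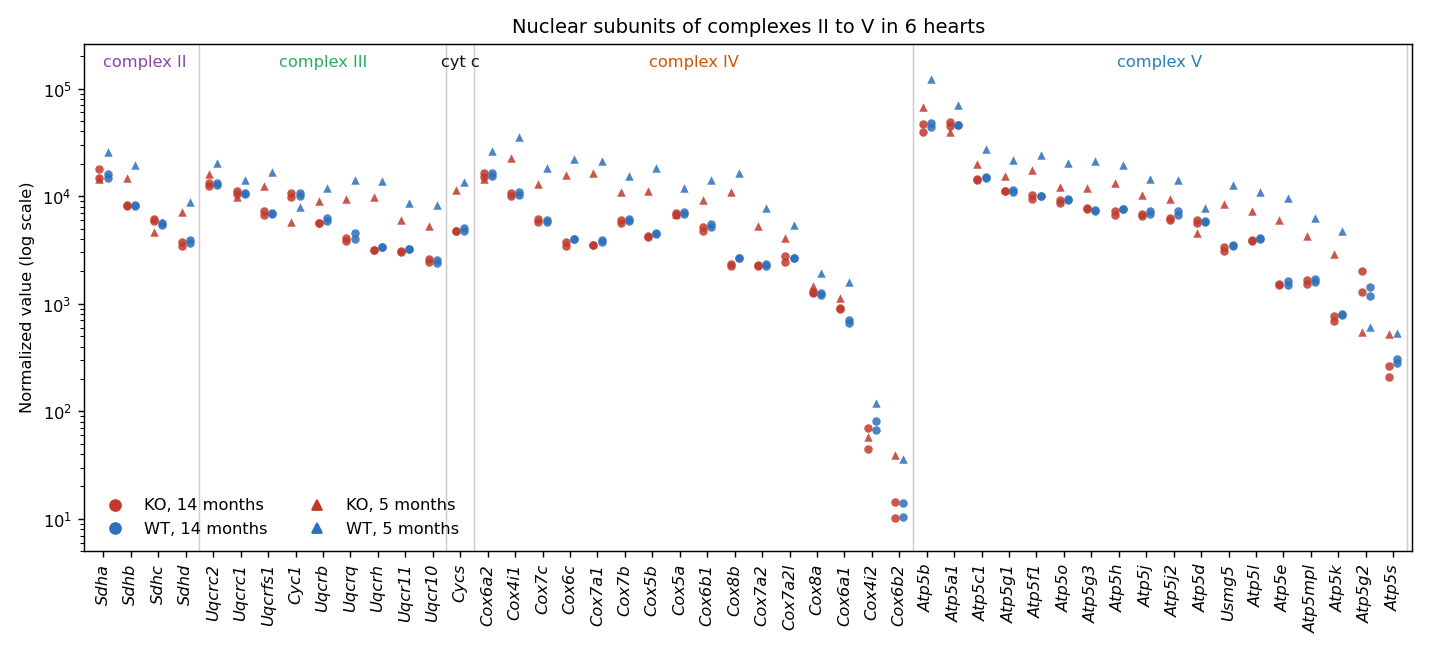
Normalized value (log scale) of the 48 tested members in each of the 6 hearts, grouped by complex and ordered by mean level; circles are 14 months, triangles 5 months, red KO (left of each column) and blue WT. For most members the 4 circles coincide and the triangles lie above them, with the WT triangle the higher; Cyc1 and Atp5g2 have both triangles below the circles.

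At 14 months the transcripts of most subunits stood lower than at 5 months. By limma with Benjamini-Hochberg adjustment over all 13823 genes tested and a threshold of 0.05, 38 of the 48 members fell and 2, Cyc1 and Atp5g2, rose. Of all genes tested, 16.0% fell and 17.7% rose. The median log2 difference, 14 minus 5 months, was −1.05 over the members and 0.02 over all genes. In 38 members every 14-month value lay below both 5-month values (79.2%, against 25.0% of all genes), and in 2 every 14-month value lay above both (4.17%, against 25.7%). Together the members took 3.10 to 3.20% of all nuclear signal in the 14-month hearts, against 4.59% in the 5-month KO heart and 5.77% in the 5-month WT heart. Scaling each library to its nuclear genes moved the median of all genes to 0.22 and the split of all calls to 3402 higher and 1232 lower, against 2447 and 2216 as deposited, and the member median to −0.85. Without WT replicate 3 the member median was −0.85, and without KO replicate 3 it was −1.26. Both 5-month libraries had high Y-linked sums while the 14-month libraries had either kind, and the part of that in the age differences was not tested.

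Complex II feeds electrons from succinate, an intermediate of the citric acid cycle, into the chain. Sdhb, its iron-sulfur protein, and Sdhd, one of its membrane anchors, fell at 14 months, by 1.05 (SE 0.13) and 1.10 (SE 0.12) on the log2 scale. Sdha, the flavoprotein that oxidizes succinate, had the highest mean value of the 4 before division by transcript length. Per kilobase Sdhb was higher at 14 months (7175 against 5461 for Sdha). Sdha had 14639.8 and 17922 in KO hearts and 15910.0 and 14872 in WT hearts at 14 months. At 5 months it had 14432 in the KO heart and 25872 in the WT heart. The single high value was that of the 5-month WT heart, and the age difference was −0.29 (SE 0.21, limma adjusted p = 0.316). Without that heart it was 0.17, and without the 5-month KO heart it was −0.75. Sdhc, the other membrane anchor, had an age difference of 0.15 (SE 0.13, limma adjusted p = 0.423), and the differences of the 4 subunits ran from −1.10 to 0.15. Sdhc passed as a rise with quantile normalization (0.42) and with nuclear scaling (0.35), and had 0.37 without the 5-month WT heart.

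In complex III, which passes electrons from ubiquinol to cytochrome c, 7 of 9 members fell and 1 rose. Cyc1, cytochrome c1, had 9922 and 10614 in KO hearts and 10607 and 10040.0 in WT hearts at 14 months, against 5815 in KO and 7983 in WT at 5 months. All 4 older hearts lay above both younger ones, and Cyc1 rose by 0.59 (SE 0.14, limma adjusted p = 0.0141), or by 0.37 without the 5-month KO heart. Uqcrfs1, the Rieske iron-sulfur protein that works beside it, fell by 1.05 (SE 0.14). The core proteins, which carry no redox group, were Uqcrc2 with −0.48 (SE 0.13, limma adjusted p = 0.0258) and Uqcrc1 with −0.14 (SE 0.15, limma adjusted p = 0.495). Uqcrc2 passed the test, but not with quantile normalization (−0.23, limma adjusted p = 0.0803), not under 2 other settings and not without WT-1, WT-2 or KO-1, and without the 5-month WT heart its difference was −0.32. Uqcrc1 had −0.42 without the 5-month KO heart and 0.14 without the 5-month WT heart. Uqcrc2 had the highest mean value of the complex before division by transcript length. Per kilobase Uqcrb was higher at 14 months (10949 against 6826 for Uqcrc2). Uqcrc2 had 12503 and 13317 in KO hearts and 13361 and 12590.3 in WT hearts at 14 months. At 5 months it had 16066 in the KO and 20189 in the WT heart. The 5 small subunits all fell, with differences between −0.84 for Uqcrb and −1.85 for Uqcrh, the hinge protein. Cycs, the mobile carrier that takes electrons on to complex IV, had 4725 and 4739 in KO hearts and 5047 and 4779 in WT hearts at 14 months, against 11339 in KO and 13659 in WT at 5 months. The ages did not overlap, and Cycs fell by 1.37 (SE 0.12).

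Complex IV had the lowest median of the 4 complexes, −1.27 over 16 tested members, and 13 of them fell. Cox8b, the heart and muscle isoform of subunit 8, had 2249 and 2341 in KO hearts and 2662 and 2659 in WT hearts at 14 months, against 10900.3 in KO and 16253 in WT at 5 months. By the fitted difference its 14-month level was 18.6% of the 5-month level. The log2 difference of −2.43 (SE 0.13, limma adjusted p = 5.08e-05) was the lowest of the 48. Cox7a1, the heart and muscle isoform of subunit 7a, had 3537 and 3483 in KO hearts and 3932 and 3776 in WT hearts at 14 months, against 16254 in KO and 21451 in WT at 5 months, a fall of 2.34 (SE 0.12). Cox6c had 3415 and 3734 in KO hearts and 3979 and 3960.1 in WT hearts, against 15833 in KO and 22294 in WT at 5 months, a fall of 2.32 (SE 0.13). In all 3 the older hearts of either genotype lay close together and far below both younger ones. Cox4i1, the general isoform of the subunit where ATP is known to inhibit the enzyme, had 9966 and 10606 in KO hearts and 10353 and 11039 in WT hearts, against 22838 in KO and 35525 in WT at 5 months. It too showed no overlap between ages, with a fall of 1.44 (SE 0.16). Cox6a2, the most abundant gene of the complex, did not pass the test. It had 16271 and 15032 in KO hearts and 15357 and 16372 in WT hearts, against 14568 in KO and 26397 in WT at 5 months. Its age difference was −0.32 (SE 0.19, limma adjusted p = 0.233), and the 5-month KO value lay below the older ones. Without the 5-month WT heart the difference was 0.10, and without the 5-month KO heart it was −0.74. Cox5a (−0.37, SE 0.18) and Cox4i2 (−0.36, SE 0.28), the isoform of subunit 4 known from lung and from low oxygen, were the other 2 members of the complex that did not pass the test. Cox5a had 0.01 without the 5-month WT heart and −0.76 without the 5-month KO heart. Cox4i2 had −0.04 without the 5-month WT heart and −0.69 without the 5-month KO heart.

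Cox8b and Cox7a1 are known in the mouse also from brown fat, so the adipocyte markers are given beside them. The 10 adipocyte markers summed to 9024 and 8630 in KO hearts and 7087 and 9116 in WT hearts at 14 months, against 11882 in the KO and 11865 in the WT heart of 5 months. Of the 9 tested 1 rose and 1 fell with age (median 0.15), and none was at 0 in every library. Most of each sum was Fabp4, which endothelial cells are also known to express. Without Fabp4 the other 9 markers summed to 1740 and 2522 in KO hearts and 756 and 703 in WT hearts at 14 months, against 760 in the KO and 1277 in the WT heart of 5 months, so their order across libraries differed from that of the full sum. Ucp1, the defining brown fat gene, had 465 and 788 in KO hearts and 108 and 8.71 in WT hearts at 14 months. At 5 months it had 4.26 in KO and 26.5 in WT. Cardiomyocyte markers moved with age in the same direction as the members, with 5 of 9 lower and 1 higher at 14 months and a median of −0.67. Endothelial markers moved in the opposite direction, with 4 of 5 higher at 14 months and a median of 0.87, as did 3 of 6 fibroblast markers (median 0.68). These lists also differed in transcript length, with medians of 1104.5 nucleotides for cardiomyocyte, 4162.5 for endothelial and 5333 for fibroblast markers. Age differences went with transcript length over all protein-coding genes, as given below. The part of length in the marker differences was not tested. In bulk tissue, fewer cells of a type and less RNA per cell cannot be told apart, and the part of these markers in the age differences was not tested.

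The isoform pairs showed how the partners of one subunit moved against each other, as log2 ratios within each library. Cox8b over Cox8a, its liver isoform, was 0.79 and 0.88 in KO hearts and 1.15 and 1.09 in WT hearts at 14 months, against 2.91 in the KO and 3.08 in the WT heart of 5 months. Cox7a1 over Cox7a2 was 0.62 and 0.63 in KO and 0.80 and 0.69 in WT hearts at 14 months, against 1.62 in KO and 1.45 in WT at 5 months. In both pairs the heart isoform was the more abundant in every library, and its excess was smaller in all 4 older hearts. Cox6a2 over Cox6a1 went the other way, with 4.17 and 4.08 in KO and 4.46 and 4.64 in WT hearts at 14 months, against 3.70 in KO and 4.05 in WT at 5 months. The age differences of these ratios were −2.01, −0.85 and 0.46. Each had an exact two-sided permutation p of 0.133 (0.156 after Benjamini-Hochberg adjustment over 7 ratios), which is the smallest that 4 against 2 libraries allow. Cox8b and Cox8a have transcripts of 360 and 550 nucleotides, Cox7a1 and Cox7a2 of 439 and 659, and Cox6a2 and Cox6a1 of 680 and 571. In these 3 pairs the shorter partner had the lower age difference, but in Cox4i2 (730) and Cox4i1 (755) it did not. The part of length in the ratios was not tested. Cox8a had 1299 and 1268 in KO and 1203 and 1245 in WT at 14 months, against 1452 in KO and 1926 in WT at 5 months. Cox7a2 had 2304 and 2249 in KO and 2258 and 2339 in WT at 14 months, against 5305 in KO and 7839 in WT at 5 months. By the fitted differences the 14-month levels of Cox8a and Cox7a2 were 74.9% and 35.5% of those at 5 months, and both passed the test. The fall of Cox8a (−0.42, SE 0.14, limma adjusted p = 0.0475) was lost under 11 settings, among them nuclear scaling (−0.22, limma adjusted p = 0.172) and leaving out any library but KO-3, and it was −0.18 without the 5-month WT heart and −0.65 without the 5-month KO heart. Cox6a1 had an age difference of −0.78 (SE 0.19, limma adjusted p = 0.018), which was −0.33 and did not pass without the 5-month WT heart (limma adjusted p = 0.0798) and was −1.23 without the 5-month KO heart. Cox6b1, the general isoform of subunit 6b, fell by 1.15 (SE 0.15), with 4707 and 5157 in KO and 5164 and 5542 in WT at 14 months, against 9121 in KO and 14272 in WT at 5 months. Its testis partner Cox6b2, at far lower values, fell by 1.55 (SE 0.37), with 10.3 and 14.2 in KO and 10.3 and 14.2 in WT at 14 months, against 39.0 in KO and 35.8 in WT at 5 months. It did not pass without either 5-month heart (limma adjusted p = 0.0667 without the KO and 0.0537 without the WT heart). Cox4i2 stood at 70.1 and 44.6 in KO and 80.4 and 67.4 in WT at 14 months, against 57.3 in KO and 119 in WT at 5 months, under 1% of Cox4i1 in every heart.

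Within complex V, 15 of 18 members fell and 1 rose, and the parts of the enzyme differed in their medians. The 5 small subunits of the membrane part, f, e, g, DAPIT and the proteolipid Atp5mpl, all fell, with a median of −1.64. The 4 subunits of the peripheral stalk, which holds the catalytic head still, all fell, with a median of −0.93. Of the 5 subunits of the catalytic F1 head 3 fell, with a median of −0.68 over the 5. These parts also differed in median transcript length, with 489 nucleotides for the membrane part, 790 for the stalk and 1166 for the head. The 3 c-ring genes described below had a median length of 718.5 and a median difference of −0.71. The part of length in these medians was not tested. Atp5b had 39361 and 46802 in KO hearts and 47398 and 44369 in WT hearts at 14 months, against 67694 in KO and 121875 in WT at 5 months, a fall of 1.03 (SE 0.19, limma adjusted p = 0.00528), with a difference of −0.66 without the 5-month WT heart. Atp5a1, which builds the head with it in equal number, had 44732 and 48989 in KO hearts and 46079 and 45728 in WT hearts at 14 months, against 39346 in KO and 69835 in WT at 5 months. Here the 5-month KO value was the lowest and the 5-month WT value the highest of the 6, and the age difference was −0.18 (SE 0.20, limma adjusted p = 0.517). It passed as a rise with quantile normalization (0.49, limma adjusted p = 0.00537). The difference was −0.61 without the 5-month KO heart and 0.25 without the 5-month WT heart. Atp5d (−0.02, SE 0.18) did not pass the test either, and had −0.415 without the 5-month KO heart and 0.367 without the 5-month WT heart. Atp5c1 fell by 0.68 and Atp5e fell by 2.30. Atpif1, the inhibitor of the enzyme and not itself a member, fell by 1.11 (SE 0.15).

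The c-ring, which turns as protons pass, is built from one protein coded by 3 genes that differ in their import signals. Atp5g1 had 11207 and 11056 in KO hearts and 10915 and 11382 in WT hearts at 14 months, against 15431 in KO and 21629 in WT at 5 months, and fell by 0.71 (SE 0.14). Atp5g3 had 7680.1 and 7713 in KO hearts and 7389 and 7278 in WT hearts, against 11892 in KO and 21182 in WT at 5 months, and fell by 1.08 (SE 0.19). Without the 5-month WT heart the differences were −0.47 for Atp5g1 and −0.63 for Atp5g3. Atp5g2, the least abundant, had 1997 and 1280.5 in KO hearts and 1171 and 1425 in WT hearts, against 544 in KO and 602 in WT at 5 months. By its own values it rose by 1.33 (SE 0.20, limma adjusted p = 0.00257), alone among the genes of complex V. This rise did not survive the addition of a pseudogene. All of the 31-base words of the pseudogene Gm10175 occur in Atp5g2, so short reads from either cannot be assigned with certainty, and Gm10175 had 582 and 1154 in KO hearts and 1371 and 1164 in WT hearts at 14 months, against 2634 in the KO and 3951 in the WT heart of 5 months. The sum of both was 2579 and 2435 in KO and 2542 and 2589 in WT hearts at 14 months, against 3178 in KO and 4554 in WT at 5 months. The sum was lower in all 4 older hearts, with an age difference of −0.59 (limma adjusted p = 0.0144). The division of reads between Atp5g2 and Gm10175 is thus uncertain in these values, including the high Atp5g2 value of KO-1. Of the 24 pseudogenes that share sequence with 15 members, only this one turned the direction of a member that passed the test. Gm10221, which shares all of its words with Atp5l, was the only other whose mean was above 5% of its member. With its pseudogenes added, Atp5l had an age difference of −0.76, against −1.17 by its own values.

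**Figure D2:**
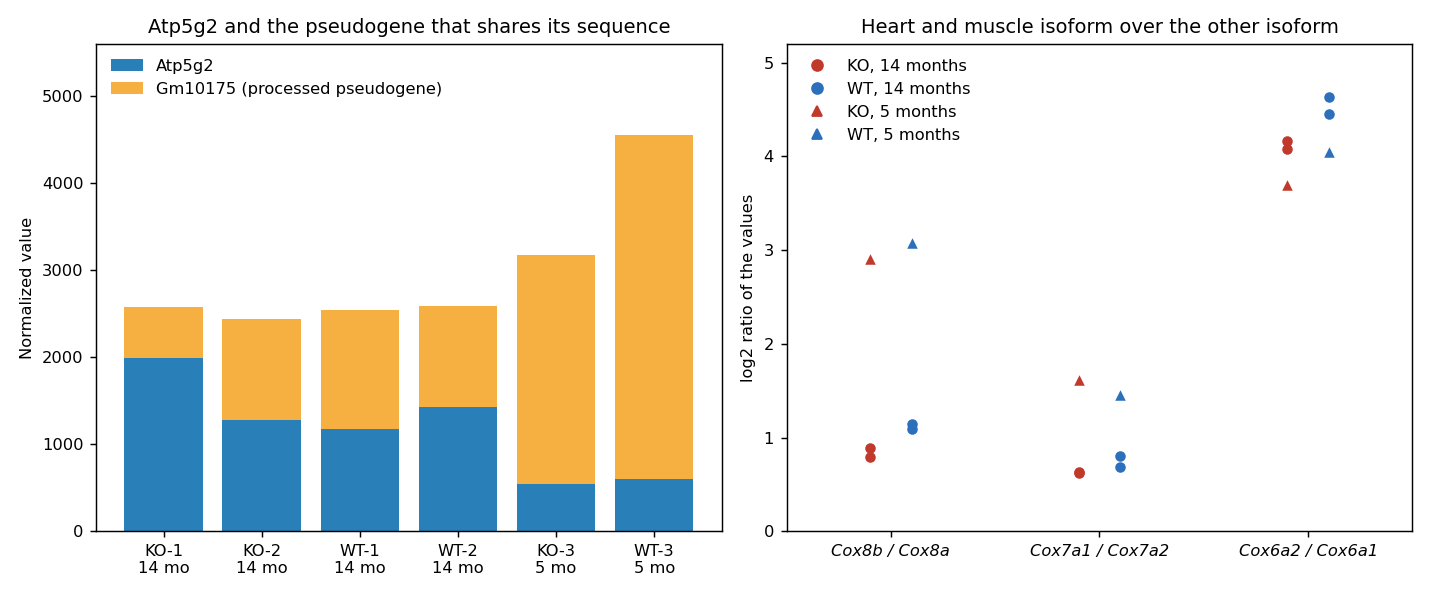
Left: normalized values of Atp5g2 (blue) and of the pseudogene Gm10175 (orange) stacked for each heart, with the 4 hearts of 14 months before the 2 of 5 months; the blue part is taller in the older hearts, while the whole bar is tallest at 4554 in the 5-month WT heart. Right: log2 ratio of the heart and muscle isoform to the other isoform for complex IV subunits 8, 7a and 6a, with 1 point per heart (circles 14 months, triangles 5 months, red KO, blue WT); Cox8b over Cox8a has both triangles near 3 and all circles near 1.

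The age difference of a member went with the length of its transcript. Over the 48 members Spearman's rho between length and age difference was 0.63, and over 13388 protein-coding genes tested it was 0.36; these genes share the same 6 libraries, so both are descriptions. Members under 500 nucleotides had a median of −1.68 (n = 11), against −0.86 for 69 other protein-coding genes of that length. Between 500 and 700 nucleotides the medians were −0.99 (n = 12) and −0.76 (n = 258), and between 700 and 1000 they were −0.81 (n = 8) and −0.57 (n = 654). Between 1000 and 1500 nucleotides the members had −1.05 (n = 6) and the other genes −0.32 (n = 1403). In each of these length classes, and in the 3 above them, the last of which holds Cycs alone, the member median lay below that of other genes. When the trend of the values with length was removed in each library, 37 members fell and 2 rose and the member median was −0.78. With trends in both length and GC content removed, 35 fell, 2 rose and the median was −0.74. These corrections were chosen after the data had been seen, and the part of transcript length in the age differences was not tested beyond them.

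**Figure D3:**
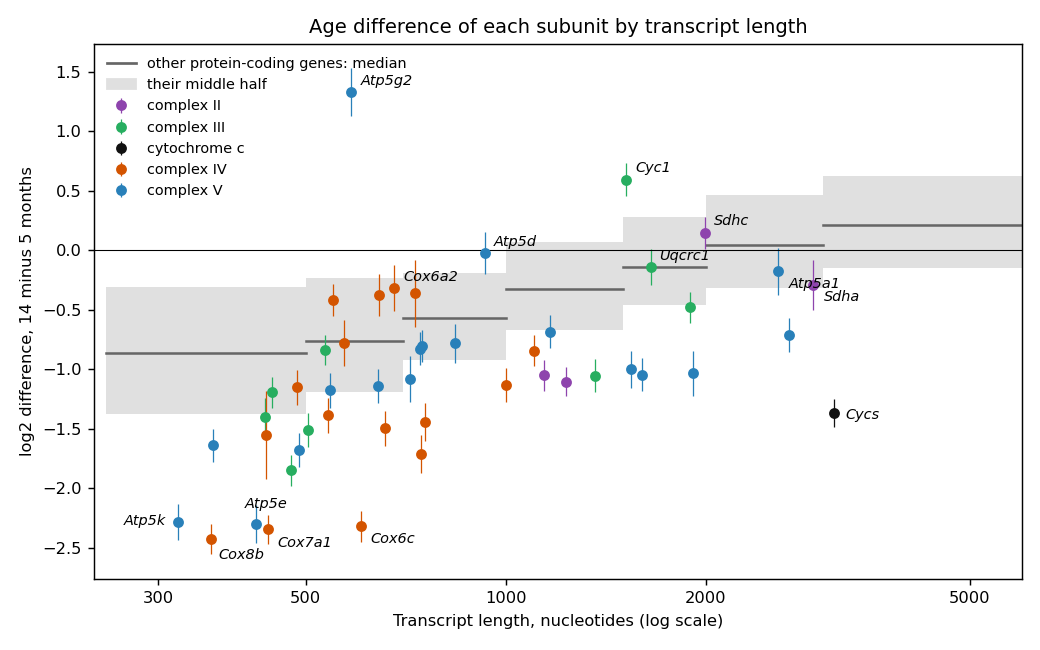
Log2 difference, 14 minus 5 months, of each member (points coloured by complex, bars ± 1 SE from limma) against its transcript length in nucleotides (log scale); grey lines and bands are the median and interquartile range of the other protein-coding genes in each length class. Short subunits such as Cox8b and Atp5k lie lowest, at −2.43 and −2.28, and most points lie below the grey line of their class.

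Between genotypes no member passed the test. With age as a covariate 0 of 48 members were called in KO against WT, beside 0% of all genes, and 3 members and 841 of all genes had an unadjusted p under 0.05. By limma-voom 0 genes were called as well. The fitted difference was below 0 in 45 of 48 members, with a median of −0.22, against −0.02 over all genes. This rested on the 5-month hearts. For replicate 3 (5 months) 47 of 48 members were lower in the KO library, with a median of −0.52 (all genes −0.06), while the medians for replicates 1 and 2 (14 months) were −0.06 and −0.05 (all genes −0.01 and 0.00). Leaving out either 5-month library gave a fitted median of −0.05. The age covariate then takes up the remaining 5-month heart, so this repeats the 14-month comparison and is no separate check. The smallest p belonged to Cox8b, at −0.33 (SE 0.12, limma adjusted p = 0.745), lower in the KO heart of all 3 replicate numbers. Atp5j2, subunit f of ATP synthase, had 6052 and 6297 in KO hearts and 6689.6 and 7227 in WT hearts at 14 months, and 9326 in the KO against 13994 in the WT heart of 5 months, a difference of −0.31 (SE 0.13, limma adjusted p = 0.745). Cox4i2 had the largest difference, −0.61 (SE 0.26, limma adjusted p = 0.745), at the low values given above, and Atp5b had −0.35 (SE 0.18). None of the 7 isoform ratios passed a test between genotypes: their exact two-sided permutation p-values were 0.30 or more, where 3 against 3 cannot go below 0.10.

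**Figure D4:**
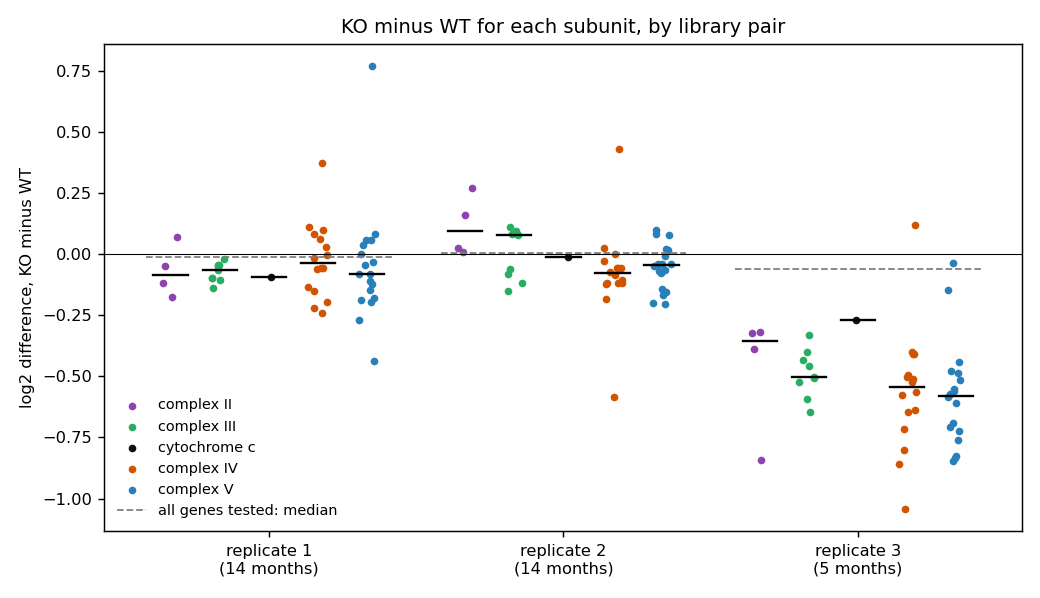
Log2 difference, KO minus WT, of each member between the libraries of the same replicate number, coloured by complex; black bars are the medians of each complex and dashed lines the medians of all genes tested. The points lie around 0 for both pairs of 14 months and, except for Cox6b2, below 0 for the pair of 5 months.

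At 14 months, where each genotype has 2 hearts, KO and WT lay close together. No member was called, beside 0.101% of all genes (7 higher and 7 lower), and the median difference was −0.05. The 95% interval of the member differences ran from −0.25 to 0.15 at the median of its bounds, and for 43 of 48 members it lay wholly within 0.5 of 0 on the log2 scale. Both KO values lay below both WT values in 17 members (35.4%, against 17.9% of all genes) and above them in 4 (8.33%, against 17.2%), namely Atp5g3, Cox6a1, Cox8a and Sdhc. Cox6a1, the liver isoform of subunit 6a, had 906 and 887 in KO hearts, against 699 and 658 in WT hearts. Its difference at this age was 0.40 (SE 0.10, limma adjusted p = 0.509), and at 5 months the order was the other way, with 1124 in the KO and 1592 in the WT heart. Cox8b had a difference of −0.21 at 14 months (SE 0.08, limma adjusted p = 0.788).

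The difference between the genotype differences of the 2 ages was tested with 1 heart per genotype at 5 months and 2 residual degrees of freedom. It was called in 6 members, beside 2.08% of all genes, and in all 6 the KO heart stood relatively lower at 5 months. They were Atp5g3 (0.90, SE 0.12, limma adjusted p = 0.0293), Atp5a1 (0.86, SE 0.14), Cox6a2 (0.84, SE 0.14), Cox5a (0.77, SE 0.13), Atp5d (0.78, SE 0.14) and Cox6a1 (0.90, SE 0.17, limma adjusted p = 0.0483). The fitted value was above 0 in 46 of 48 members, with a median of 0.48. The spread in this test came from the 14-month hearts alone, so these p-values do not show that the 5-month difference exceeds the variation between hearts of that age. None of the 6 passed under quantile normalization, where the member median was 0.16, and none passed without limma's trend and robust options. The 5-month genotype difference rests on both 5-month libraries, and neither can be left out of this test. The 5-month WT library is the one with the high cardiomyocyte marker sum. In Atp5a1, Cox6a2 and Atp5d the 5-month KO heart had the lowest of the 6 values. The part of either library in these differences was not tested.

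Other genes of oxidative phosphorylation were read from fixed lists. Of 36 nuclear subunits of complex I, which takes electrons from NADH, 30 fell at 14 months and none rose, with a median of −1.06. Ndufa2 fell by 2.27 and Ndufb2 by 2.02. The 13 mitochondrially encoded partners had a median of 0.14, with 3 lower and 1 higher. mt-Atp8, a short subunit of complex V, fell by 1.55 (SE 0.17), and mt-Co2, a catalytic subunit of complex IV, rose by 1.08 (SE 0.17). mt-Atp6, also of complex V, went the other way from mt-Atp8. It had 1027632 and 870851 in KO and 921463 and 813520 in WT hearts at 14 months. At 5 months it had 572445 in KO and 732279 in WT. The lengths were 204 nucleotides for mt-Atp8 and 681 for mt-Atp6, and the part of length was not tested. Of 35 assembly factors tested 20 fell and 1 rose (median −0.54), among them the copper chaperone Cox17, which fell by 1.81. Cox14, the other of them with the smallest p, fell to 651 and 750.3 in KO and 900.0 and 783 in WT hearts at 14 months, against 2032 in KO and 2304 in WT at 5 months. Of 7 adenine nucleotide and phosphate carriers tested 4 fell and none rose (median −0.47), with Slc25a4, the main ADP/ATP carrier of heart, falling by 1.14 (SE 0.12). Of 21 regulators of mitochondrial gene expression 3 fell and 4 rose (median −0.04), near the shares of all genes tested, 16.0% and 17.7%. Lrpprc, with the highest mean value, had 2748 and 2822 in KO and 2859 and 2801 in WT hearts at 14 months. At 5 months it had 2193 in KO and 3688 in WT. Ppargc1a, the next, had 1710 and 1920 in KO and 3213 and 1794 in WT hearts at 14 months. At 5 months it had 2149 in KO and 2597 in WT. In neither gene did the ages separate. Esrra, a nuclear receptor known to act on promoters of respiratory chain genes, fell by 0.63 (SE 0.13). Tfam, which packages mitochondrial DNA, fell by 0.59 (SE 0.16). Esrrb, a related receptor, rose by 0.92 (SE 0.12). Yy1 rose by 1.07 (SE 0.13), Nrf1 had an age difference of −0.04 (SE 0.20) and Gabpa one of −0.10 (SE 0.11), and neither Nrf1 nor Gabpa passed the test. In none of these 5 lists was a gene called between KO and WT with age as a covariate.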

How the data were processed

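RNA was measured by sequencing of 6 mouse hearts. The submitters' processing notes name Salmon 1.5.2 and the mm10 genome; how the authors scaled the libraries is not given in the sources used here. Deposited values are a normalized gene-level signal, not whole reads, so the depth behind a value is unknown. The members and gene lists were chosen with earlier results of these data known. Of 20362 lines 108 without a gene were left out, and 20122 of 20254 genes were matched to GENCODE M21 (GRCm38). Each table column carried the name of 1 sample.

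Values were fitted as log2(value + 1) with limma 3.58.1 in R 4.3.3 (trend and robust options) over the 13823 genes with at least 10 in 3 libraries, and calls were made at a Benjamini-Hochberg adjusted p under 0.05. The pseudocount understates changes of low genes. Fits took KO against WT over all hearts (age as covariate) and at 14 months alone, 14 against 5 months (genotype as covariate), and the interaction of both. Isoform ratios were tested by exact permutation. Transcript length is the median over a gene's protein-coding transcripts. Per-library values are printed for the member of each complex with the highest mean value, not divided by length, and for the isoform and c-ring genes. They are also printed for the 3 members with the largest difference or smallest p in each fit. Cyc1, Ucp1, Atpif1, Esrra, Tfam, Nrf1, Gabpa and mt-Atp6 were added after their values were seen.

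Each replicate number names a KO and a WT library; the labels mention no common litter or batch. Deviations of same-number libraries from their genotype means correlated at 0.390, 0.383 and 0.617, which includes age; within 14 months the correlation was 0.0147. The numbers were therefore not taken as pairs beyond age. Replicate number also went with the Y-linked sums, which were low in KO-2 (82.2) and WT-2 (54.9) and higher in the other libraries. The replicate block was run as an alternative.

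Alternatives were other pseudocounts, filters, scalings, covariates and limma options, added pseudogene values, the replicate block, each library left out, and corrections for length and GC content.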

Additional observations from a re-analysis of the deposited data

Results flagged for a closer look

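The interaction of genotype and age passed the threshold in 6 members (limma, 2 residual degrees of freedom). With 1 heart per genotype at 5 months the spread came from the 14-month hearts alone, so the test does not show that the 5-month difference exceeds the variation between hearts of that age. None of the 6 passed with quantile normalization or without limma's trend and robust options. The difference of differences, on the log2 scale, was 0.903 for Atp5g3, 0.856 for Atp5a1, 0.838 for Cox6a2, 0.766 for Cox5a, 0.782 for Atp5d and 0.904 for Cox6a1. In each the KO heart of 5 months had the lower value of its pair. Atp5g3 had 7680.1 and 7713 in KO and 7389 and 7278 in WT hearts at 14 months, and 11892 in the KO against 21182 in the WT heart of 5 months. In Atp5a1, Cox6a2 and Atp5d the KO heart of 5 months had the lowest and the WT heart of 5 months the highest of the 6 values. The 5-month WT library also held the highest sum of cardiomyocyte markers, 1231859, and the part of either 5-month library in these 6 values was not tested.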

How the results depend on the processing

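The age result kept its direction under all alternatives run. The member median was −0.78 with quantile normalization, −0.85 with nuclear scaling, −0.78 with the length trend removed and −0.74 with length and GC trends removed. It was −1.26 to −0.85 with 1 library left out. With both 5-month hearts kept, 37 to 40 members were called. The call was lost for Cox8a under 11 settings, Uqcrc2 under 6, Cox6a1 and Cox6b2 under 3 each, and Atp5c1 and Uqcrb under 1 each (length and GC trends removed). With both 5-month hearts kept, it was gained as a rise by Sdhc with quantile normalization and with nuclear scaling, and by Atp5a1 with quantile normalization. Direction changed in some members. Atp5a1 turned to 0.49 with quantile normalization and 0.022 with nuclear scaling (−0.61 to 0.25 with 1 library left out), Sdha to 0.017 with quantile normalization (−0.75 to 0.17), Cox6a2 to 0.0036 with the length trend removed (−0.74 to 0.10), and Atp5g2 to −0.59 with pseudogenes added. The genotype fit called 0 genes, or 0 to 1 with 1 library of 14 months left out. Leaving out either 5-month library repeats the 14-month difference. At 14 months the 14 genes called became 7 and 9 with pseudocounts of 0.5 and 10, 2 with no filter, 5 with a filter of 100, 6 with quantile normalization, 5 with nuclear scaling, 4 without trend and robust options, 5 with limma-voom, and 4 to 12 with 1 library left out. With the replicate block it was 31, and the block changed no call of a member. The 14-month member median was −0.033 with quantile normalization, −0.035 with nuclear scaling, −0.096 with scaling to all genes, −0.054 with pseudogenes added, −0.019 with the length trend removed, −0.015 with length and GC trends removed, and −0.060 to −0.028 with 1 library left out. The 6 interaction calls became 0 with quantile normalization, 0 without trend and robust options, 1 with the length trend removed and 0 with length and GC trends removed. Genotype differences of the isoform log2 ratios changed sign with 1 library left out for Cox8b over Cox8a (−0.93 to 0.41), Cox7a1 over Cox7a2 (−0.36 to 0.21), Cox4i2 over Cox4i1 (−0.74 to 0.0045), Atp5g1 over Atp5g3 (−0.12 to 0.18, and −0.0078 with pseudogenes added) and Atp5g2 over Atp5g3 (−0.49 to 1.11). The age difference of Cox6b2 over Cox6b1 turned to 0.054 with 10 added to both values. The causes were not tested beyond what each alternative changes. The main limits are 2 hearts at 5 months, an unknown depth and an age that cannot be told apart from what else sets replicate 3 apart; low members such as Cox4i2 and Cox6b2 carry counting error of unknown size.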
